A study of Mus musculus with 12 samples.

Results

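Myl6 and Dynlt1 encode light chains of 2 cytoskeletal motors, and they were followed here in C2C12 cells on day 7 of differentiation. The genes were taken by symbol from the deposited expression tables, where each symbol had 1 row, which gave 2 of the 27942 genes analysed. Both were selected on their measured FPKM difference between treated and untreated cells in these libraries, so their values in that comparison are given as a description, without a test.

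Myl6 is the essential light chain of non-muscle and smooth muscle myosin II. It wraps the neck of the heavy chain together with a regulatory light chain, and stiffens the lever with which the motor pulls on actin filaments. Dynlt1, also called Tctex-1, is a light chain of cytoplasmic dynein, the motor that carries cargo toward the minus ends of microtubules, and it binds the dynein intermediate chain. When myoblasts fuse into myotubes they lay down sarcomeric myosin with its own light chains, while non-muscle myosin II and dynein serve cell shape, nascent fibrils and the placing of nuclei.

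C2C12 is a mouse myoblast line that differentiates when serum is withdrawn. All cells were grown to 80% density in 10% fetal bovine serum and moved to 2% horse serum for 7 days. The control group was untreated. The other group received 4-octyl itaconate (OI) at 25 µmol/L, a form of the metabolite itaconate that enters cells and is known as an activator of the transcription factor NRF2. Each group had 3 libraries of total RNA, from 1 cell line. The labels do not say whether these were separate cultures, so the errors measure the spread between libraries, which may be technical. The series title describes OI as repressing myogenic differentiation. A second set of 3 control and 3 OI samples was not analysed here. Library sizes recovered from the values ran from 24441000 to 36274000 reads or fragments. Of the 23 markers listed for muscle, cycling, fibroblast or smooth muscle and macrophage cells, 2 have a value here, both of muscle. Tnnc1, slow troponin C, ranged from 110 to 140 FPKM in control and from 21.9 to 24.7 FPKM with OI. H19, an imprinted RNA of developing muscle, was at 131 to 136 and 24.1 to 32.1 FPKM. FPKM are fragment numbers corrected for gene length and library size. In bulk RNA, fewer cells of a type and less RNA per cell cannot be told apart. Control replicate 1 stood apart in the share of its reads that fell on the genes analysed, at 23.9% against 5.25% to 5.77% elsewhere.

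Dynlt1 (ENSMUSG00000096255, chromosome 17, 6430112 to 6436293 on the plus strand, mm10) has the name Dynlt1b under the same identifier in GENCODE M21, and it is 1 of several adjacent, nearly equal copies. Dynlt1a and Dynlt1f also have values here, and Dynlt1c was not analysed. The coding sequences of all 4 are 342 bases long with the stop codon, and those of Dynlt1a, Dynlt1c and Dynlt1f differ from Dynlt1 by the single substitution A21C, counted from 1 at the start codon. The first 60 coding bases (GENCODE M21, GRCm38, sense strand) are printed because they hold that base, which is in capitals.
Dynlt1: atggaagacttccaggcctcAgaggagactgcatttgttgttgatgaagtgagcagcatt
Dynlt1a: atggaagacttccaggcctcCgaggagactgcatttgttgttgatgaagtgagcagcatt
Dynlt1c: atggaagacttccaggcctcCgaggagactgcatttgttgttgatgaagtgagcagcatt
Dynlt1f: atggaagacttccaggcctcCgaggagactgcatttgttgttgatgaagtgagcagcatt

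Over the whole transcript of 771 bases, Dynlt1 and Dynlt1f differ at 7 positions. Of all 100-base windows of the Dynlt1 transcript, 82.0% occur letter for letter in the transcript of another annotated gene. They were found in Dynlt1a and in Dynlt1c for 67.1% each, in Dynlt1f for 52.2%, and in the pseudogene Dynlt1-ps1 for 33.0%. With 50-base and 150-base windows the share found in any other gene was 83.2% and 80.5%. No label or header states the read length or how reads with several matching places were handled, so a read from this family may have been assigned to any of the copies.

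Myl6 (ENSMUSG00000090841, chromosome 10, 128490860 to 128494145 on the minus strand, mm10) has a different kind of uncertainty. GENCODE M21 lists 15 transcripts for it, of which 6 are protein-coding and between 562 and 1668 bases long. The length in the deposited tables is 3040 bases, which equals the single-exon retained-intron transcript Myl6-209. The 2 coding forms Myl6-201 and Myl6-206 both have 456 coding bases with the stop codon. Myl6-206 carries an additional exon of 45 bases (128491720 to 128491764) that changes the last codons. Their last 60 coding bases (GENCODE M21, GRCm38, sense strand) are shown because a gene-level value adds the forms together, and capitals mark the 14 bases that differ.
Myl6-201: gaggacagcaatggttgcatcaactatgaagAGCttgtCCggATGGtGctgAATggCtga
Myl6-206: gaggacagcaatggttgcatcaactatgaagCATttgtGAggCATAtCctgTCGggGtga

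**Figure D1:**
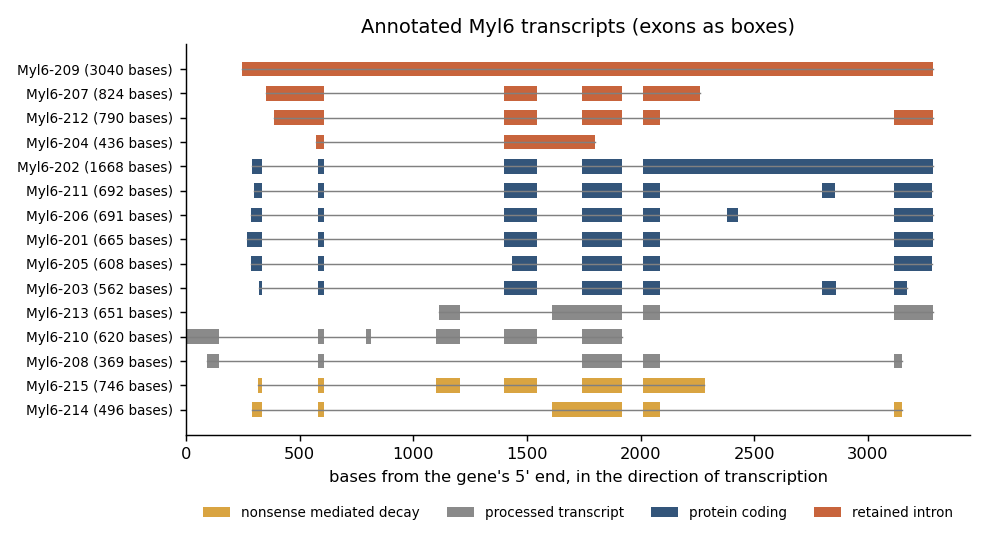
Exons (boxes) of the 15 transcripts that GENCODE M21 lists for Myl6, against the distance in bases from the 5′ end of the gene, coloured by transcript type. The retained-intron transcript Myl6-209 spans 3040 bases without a gap, whereas Myl6-201 and Myl6-206 have 665 and 691 bases in 6 and 7 exons.

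The lengths bear on how the levels may be read. In the tested genes with 1 transcript in GENCODE M21, FPKM times the deposited length gave a whole read number (within 0.01) in all 6 libraries for 1271 of 1274. With 2 or more transcripts that held for 65 of 454 genes. Dynlt1, Dynlt1a and Dynlt1f gave whole numbers in every library, and Myl6 in none. Read numbers are therefore given for the Dynlt1 copies, and only FPKM for Myl6, whose level relative to other genes depends on a length that the tables do not state for its forms. If the mix of forms differed between libraries, the difference of Myl6 between the groups would depend on length too. That was not tested.

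Myl6 reached 106.0, 103.3 and 109.5 FPKM in control replicates 1 to 3. In OI replicates 1 to 3 it was at 90.7, 83.2 and 79.4 FPKM. All 3 control libraries lay above all 3 OI libraries, with a gap of 12.7 FPKM between the nearest of them, and the control libraries were closer together than the OI libraries. The means were 106 ± 3.09 FPKM (SD, n = 3) in control and 84.4 ± 5.74 FPKM (SD, n = 3) in OI, which is 20.6% less. On the log2(FPKM + 1) scale, which slightly understates changes at these levels, the difference was -0.33 ± 0.07 (SE). Control replicate 1 lay between the other 2 control libraries, and without it the difference was also -0.33. The muscle markers Tnnc1 and H19 were also lower in all OI libraries, whereas Dynlt1 was higher in all of them. Whether the state of the cells bears on either light chain was not tested. Quantile normalization, which forces the same distribution on every library, reduced the log2 difference of Myl6 to -0.14 ± 0.09 (SE).

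Dynlt1 reached 35.5, 33.8 and 36.2 FPKM in control replicates 1 to 3. In OI replicates 1 to 3 it was at 48.0, 48.3 and 44.9 FPKM. Here the OI libraries were the higher ones, again with no overlap and with 8.62 FPKM between the nearest libraries of the groups. The means were 35.2 ± 1.24 FPKM (SD, n = 3) and 47.1 ± 1.91 FPKM (SD, n = 3), a 1.34-fold higher level in OI. The log2 difference was 0.41 ± 0.07 (SE), and 0.42 without control replicate 1.

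**Figure D2:**
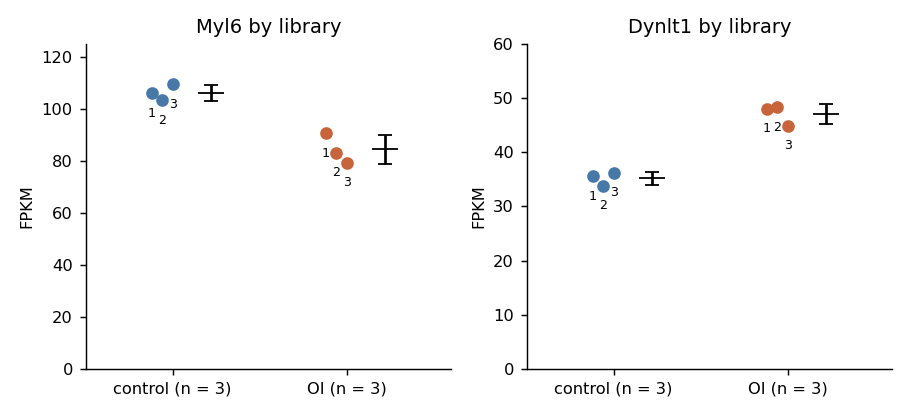
FPKM of Myl6 (left) and Dynlt1 (right) in each library, numbered by replicate, with the mean and SD of 3 libraries beside each group and axes that start at 0. Myl6 lies between 103.3 and 109.5 FPKM in control and between 79.4 and 90.7 FPKM in OI, and Dynlt1 between 33.8 and 36.2 and between 44.9 and 48.3 FPKM.

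The 2 light chains thus differed between the groups in opposite directions. Both were chosen on this comparison, so a ratio that separates the groups follows from that choice, and nothing is read from it. The ratio of Myl6 to Dynlt1 FPKM was 2.98, 3.06 and 3.02 in control replicates 1 to 3 and 1.89, 1.72 and 1.77 in OI replicates 1 to 3. Its mean was 3.02 ± 0.04 (SD, n = 3) in control and 1.79 ± 0.09 (SD, n = 3) in OI. Because 1 library gives both values, library size cancels in the ratio, while the length of Myl6 affects all 6 values. It would not affect them equally if the mix of Myl6 forms differed between libraries, which was not tested. By mean FPKM over the 6 libraries, Myl6 ranked 9 and Dynlt1 ranked 24 among the 310 protein-coding genes tested. These ranks hold only among genes with a value, since 27672 genes of the reference annotation have none here. The rank of Myl6 also depends on its length.

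Groups that do not overlap were common in these libraries. Genes reaching 1 FPKM in 3 or more libraries, 1737 in all and both light chains included, were tested with limma. Of these, 23.6% had groups that did not overlap, 12.5% lower and 11.1% higher in OI. At a limma adjusted p under 0.05 (Benjamini-Hochberg, over the 1737 genes) 48 were called, or 2.76%. By direction this was 1.15% on the higher and 1.61% on the lower side. Dynlt1 was among the 48 and Myl6 was not, and since both were chosen with this contrast known, nothing is read from that. The call of Dynlt1 was absent in all 6 fits that left out 1 library, and the median log2 difference over all genes tested was -0.02.

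**Figure D3:**
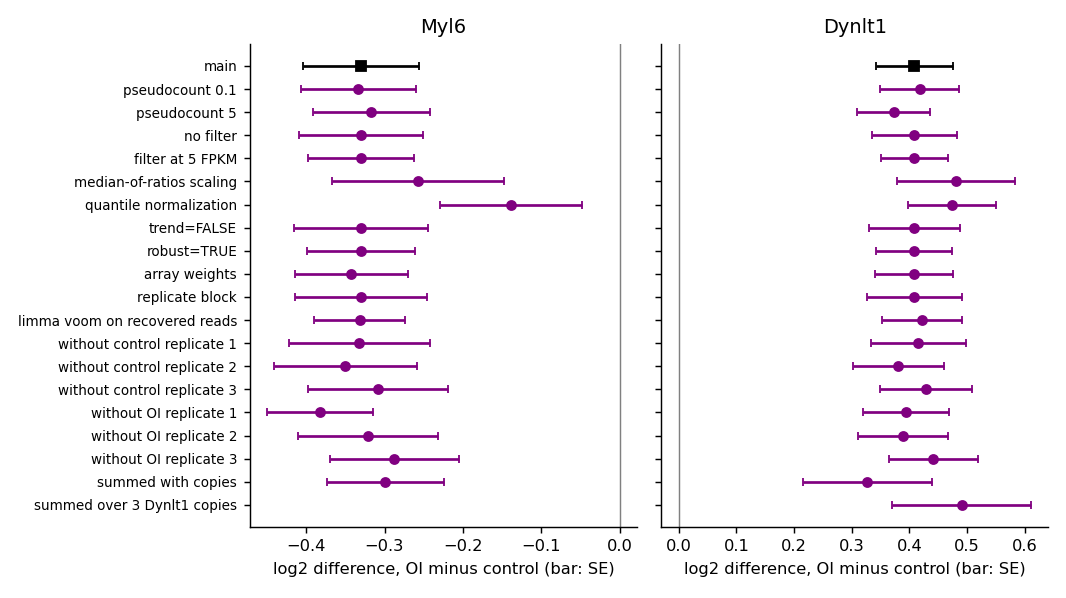
Log2 difference between OI and control (x axis, bars are the SE) of Myl6 and Dynlt1 under the reported setting (black square, labelled main) and each alternative (circles). Every value of Myl6 is below 0, from -0.38 without OI replicate 1 to -0.14 with quantile normalization, and every value of Dynlt1 is above 0, from 0.33 to 0.49.

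The other Dynlt1 copies did not all follow the same course. Dynlt1a (ENSMUSG00000092074, chromosome 17, 6310547 to 6317474 on the minus strand) had 13.7, 4.99 and 6.16 FPKM in the control libraries (replicates 1 to 3). The OI libraries had 20.9, 19.4 and 19.3 FPKM. Control replicate 1, the library with the high share of reads on the genes analysed, was far above the other control libraries, and still below all OI libraries. The log2 difference was 1.28 ± 0.32 (SE), with a limma adjusted p of 0.117, so Dynlt1a did not pass. Without control replicate 1 the difference was 1.67 and the limma adjusted p 0.00275, and without any other library the adjusted p was between 0.191 and 0.272. Exons of Dynlt1a overlap those of Tmem181a and of the long non-coding RNA Gm26848 on the opposite strand, whose reads cannot be separated from its own if strand was not used in counting.

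Dynlt1f (ENSMUSG00000095677, chromosome 17, 6648941 to 6655939 on the minus strand) had 23.8, 18.6 and 21.1 FPKM in the control libraries and 23.8, 32.0 and 16.8 FPKM in the OI libraries. The OI libraries enclosed the control range on both sides. Its log2 difference of 0.15 ± 0.23 (SE; limma adjusted p = 0.816) turned to -0.07 without OI replicate 2 and was 0.38 without OI replicate 3.

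Read numbers allow the 3 copies with values to be summed. Dynlt1c, which was not analysed, is not in the sum. Dynlt1 had 667, 793 and 835 reads in control replicates 1 to 3 and 1184, 1346 and 885 reads in OI. Dynlt1a had 248, 113 and 137 reads in control and 499, 521 and 367 in OI. Dynlt1f had 470, 458 and 511 reads in control and 618, 938 and 348 in OI. Over the 3 copies together this was 56.7, 44.7 and 49.4 RPM (reads divided by the recovered library size) in control replicates 1 to 3 and 71.6, 77.3 and 62.3 in OI. The sum also had groups that did not overlap, with means of 50.3 ± 6.03 and 70.4 ± 7.59 RPM (SD, n = 3 each), a ratio of 1.40. Of all genes tested, 23.6% had groups that did not overlap. Dynlt1, which was chosen on this comparison, supplied between 48.0% and 58.1% of the summed reads, so the sum is not independent of that choice. On the FPKM scale the log2 difference of the 3 summed copies was 0.49 ± 0.12 (SE), and that of Dynlt1 and Dynlt1f together 0.33 ± 0.11 (SE).

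The division of the reads among the copies varied from library to library. Dynlt1 took between 48.2% (95% Wilson interval 45.5 to 50.8, control replicate 1) and 58.1% (55.5 to 60.7, control replicate 2) in control, and between 48.0% (46.1 to 49.8, OI replicate 2) and 55.3% (52.9 to 57.7, OI replicate 3) in OI. These ranges overlapped, with means of 54.2% ± 5.31 and 51.6% ± 3.67 (SD, n = 3 each). Dynlt1a took 11.8% ± 5.30 in control and 21.1% ± 2.25 in OI (SD, n = 3 each), with no library of either group inside the range of the other. The nearest were control replicate 1 at 17.9% (16.0 to 20.0) and OI replicate 2 at 18.6% (17.2 to 20.1). Their Wilson intervals overlapped, so counting error could close that gap. Dynlt1f took 34.0% ± 0.44 and 27.4% ± 5.86 (SD, n = 3 each), and all 3 OI libraries were below all control libraries. OI replicate 2, at 33.4%, missed the lowest control share of 33.6% by less than the counting error of either. The intervals cover counting error only, and reads assigned to the wrong copy would move these shares.

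**Figure D4:**
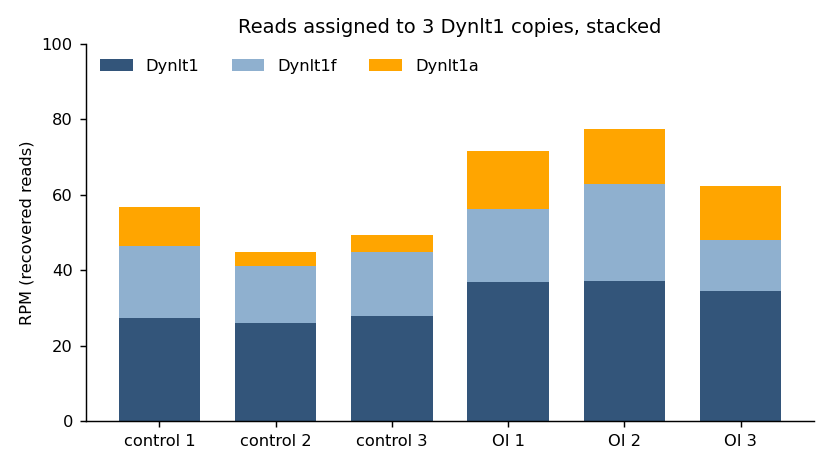
Recovered reads of Dynlt1, Dynlt1f and Dynlt1a in RPM (y axis), stacked for each library. The stacks reach 44.7 to 56.7 in control and 62.3 to 77.3 in OI, and the Dynlt1 part is 26.0 to 27.8 in control and 34.5 to 37.1 in OI.

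Reads of Myl6 can likewise fall on processed pseudogenes, intronless copies of its messenger RNA. Of the 100-base windows of Myl6-201, 26.5% were found in another annotated gene, against 82.0% for Dynlt1. Windows of 50 bases were found in 5 pseudogenes, of which Gm5526 has values here. Gm5526 (ENSMUSG00000084817, chromosome 1, 45857332 to 45857754) aligned to Myl6-201 over 407 bases with 2 mismatches. The control libraries had 3.29, 2.94 and 3.63 FPKM and the OI libraries 4.86, 4.76 and 4.05 FPKM of it. Its groups thus did not overlap and lay in the opposite order to those of Myl6. Of all genes tested, 11.1% had groups that did not overlap and were higher in OI. The log2 difference of Gm5526, 0.37 ± 0.10 (SE), did not pass (limma adjusted p = 0.136). Adding its FPKM to that of Myl6 changed the log2 difference of Myl6 from -0.33 to -0.30. The deposited lengths are 423 bases for Gm5526 and 3040 for Myl6, so this sum does not weigh the 2 genes by their reads. It is therefore no measure of what misassigned reads would change.

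The remaining motor and cytoskeletal genes could be followed only in small part. The 10 lists of myosin, dynein, dynactin, actin, tubulin and kinesin genes hold 246 genes, of which 10 have a value and 6 were tested. Besides Myl6 and Dynlt1 these are Dynlt1a, Dynlt1f, Tubb4b-ps1 and Mylf-ps. Of these 4, 1 passed limma and it was lower in OI, none passed higher, and their median log2 difference was 0.12, against -0.02 over all genes tested and 2.76% called. With control replicate 1 left out, 2 of the 4 passed, Mylf-ps and Dynlt1a. The axonemal dynein genes Dnah7a and Dnah7c and the tubulin pseudogenes Tubb4b-ps2 and Tubb2a-ps2 were below 1 FPKM in all 6 libraries and were not tested.

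Mylf-ps, a processed pseudogene 99.3% identical to the transcript of Myl1, the essential light chain of fast skeletal muscle, was the gene that passed. The control libraries had 55.4, 41.4 and 41.8 FPKM of it and the OI libraries 12.7, 15.8 and 14.6 FPKM. The log2 difference of -1.61 ± 0.14 (SE; limma adjusted p = 0.00282) lay between -1.68 and -1.39 in the 17 alternatives, and the gene passed in each of them. Myl6 and Mylf-ps, one a myosin light chain of all cells and the other a copy of a muscle-specific one, were both lower in OI, by different amounts. Tubb4b-ps1, a copy of the beta-tubulin Tubb4b, had a mean of 1.74 ± 0.31 FPKM in control, against 1.90 ± 0.27 FPKM with OI (SD, n = 3 each; limma adjusted p = 0.803).

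A further 20 tested genes share exonic bases with a list gene on either strand or nearly match its transcript. A near match had 90% identity or more, across 80% or more of the linked gene's own transcript. Short genes can therefore qualify, and the 20 include a gene of 132 bases. Among them 1 passed limma and it was lower in OI, Gm48529, which overlaps the actin-binding protein gene Tagln. It had means of 2.51 FPKM in control and 0.72 FPKM with OI (log2 difference -1.01 ± 0.15, limma adjusted p = 0.0267), and the call was lost in 5 of the 6 fits without 1 library (adjusted p up to 0.107), with the replicate block (adjusted p = 0.0943) and with no filter (adjusted p = 0.103). Its log2 difference was -0.39 when 5 was added to FPKM, -1.65 when 0.1 was added and -1.78 with limma voom, so its size depends on the scale. Of the 20, 6 had a positive log2 difference, against 44.6% of all genes tested, and the median was -0.14. For 5 of the 20 the sign changed in at least 1 alternative. The 8 linked to actin and actin-binding genes were all on the negative side, as were 55.4% of all genes tested, and they stayed there under each scaling tried. They are linked to 5 list genes only, since 3 are copies of Tmsb10 and 2 are linked to Cnn3. Such links are not a measure of the list genes themselves. The median of the 8 was -0.43, and 3 of them had an unadjusted limma p under 0.05, which 17.8% of all genes tested had. They include Gm9844, a copy of the thymosin gene Tmsb10 (means of 30.8 and 27.5 FPKM in control and OI, limma adjusted p = 0.358), and Gm4815, a copy of the calponin gene Cnn3 (means of 9.48 and 4.98 FPKM, limma adjusted p = 0.155).

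On the dynein side, 4 linked genes were tested. Gm17111 and Gm35558 overlap the heavy chain gene Dync1h1, K230015D01Rik overlaps the light intermediate chain gene Dync1li2, and Gm6788 nearly matches the light chain gene Dynll1. None passed limma, none had an unadjusted p under 0.05 (17.8% over all genes tested), and none of the 3 that limma voom could test passed there. Gm35558, with means of 2.28 and 2.86 FPKM in control and OI, had the largest difference of the 4 (0.23 ± 0.13, limma adjusted p = 0.428). Gm17111 had means of 1.19 and 0.97 FPKM, K230015D01Rik 1.67 FPKM in both groups, and Gm6788 1.06 and 0.97 FPKM. The signs of K230015D01Rik (log2 difference from -0.14 to 0.09 over the alternatives) and Gm6788 (-0.175 to 0.024) were not stable. These overlapping genes are not a measure of the dynein subunits themselves. Linked to the myosin activator gene Rhoa, Gm37401 had 99.0 ± 5.80 FPKM in control, against 103 ± 3.22 FPKM with OI (SD, n = 3 each; limma adjusted p = 0.759).

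The genes whose course over the 6 libraries was closest to each light chain were taken from 101 other tested genes per light chain, with a mean of 10 FPKM or more and leaving out predicted models. Likeness was the root mean square difference between log2(FPKM + 1) profiles after each gene's own mean was subtracted, in log2 units. For Myl6 the nearest were the small nucleolar RNA host gene Snhg12 (0.06), the microRNA host transcript Mir22hg (0.07), the ubiquitin-like protein gene Ubl5 (0.07), the host gene Snhg18 (0.07) and the linker histone gene H1f0 (0.07), against a median of 0.22 over the candidates. Snhg12 was at 11.9 FPKM in control and 9.51 in OI, and H1f0 at 149.6 and 113.1 FPKM. For Dynlt1 the nearest were the endosomal sorting gene Hgs (0.10), the transcription factor subunit gene Gtf3c2 (0.10), Samd4b (0.10), the transcript AI506816 (0.10) and the heat shock gene Hspa1b (0.12), against a median of 0.26. Hgs was at 21.1 FPKM in control and 25.4 in OI, and Hspa1b at 40.4 and 46.4 FPKM. The 5 neighbours of Dynlt1 lay farther from it than the 5 neighbours of Myl6 lay from Myl6. The profiles share their libraries and library sizes. All 10 neighbours differ between the groups in the same direction as their light chain. This follows from how they were chosen, by likeness over the same 6 libraries, and nothing is read from it.

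**Figure D5:**
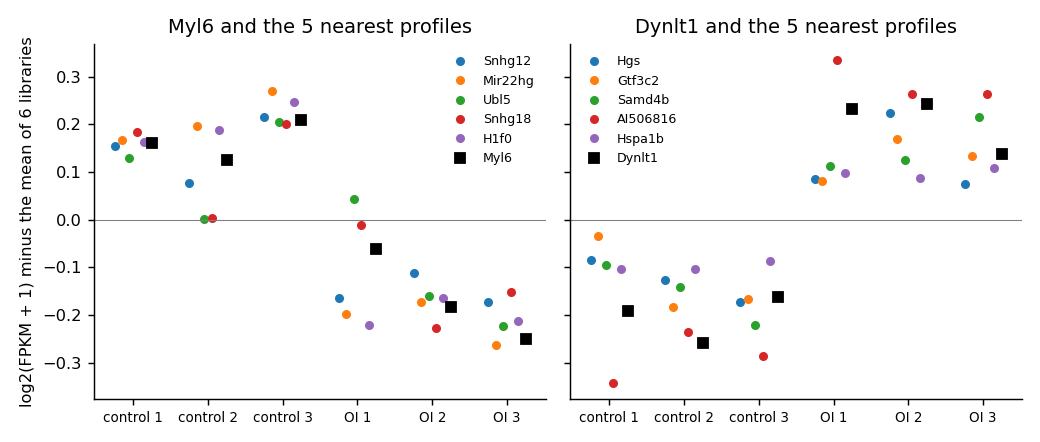
Log2(FPKM + 1) minus the gene's mean over the 6 libraries, for Myl6 (left) and Dynlt1 (right) as black squares and the 5 nearest genes of each as coloured circles. Around Myl6, OI replicate 1 is the OI library closest to the controls for Myl6, Ubl5 and Snhg18. Around Dynlt1 all 6 genes are below 0 in each control library and above 0 in each OI library. The genes were chosen for likeness over these libraries, so the shared direction follows from the choice.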

How the data were processed

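The submitters' processing notes name cutadapt 2.7, StringTie 1.3.3b and HISAT2 2.1.0, and mouse build mm10. The authors deposited FPKM values, 1 table per library. For strand setting, read length and multiply matching reads, settings are not stated in the sources. The 6 tables list equal genes; 1 row with broken annotation was left out. Members and gene lists were chosen with earlier results of these data known.

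FPKM values were tested with limma 3.58.1 (R 4.3.3) on log2(FPKM + 1), trend=TRUE, two-sided, no replicate block. Library sizes were recovered from genes of 1 exon, and read numbers as FPKM times length times library size. Transcripts came from GENCODE M21 (GRCm38, the assembly of mm10), and near-identical ones from BLAST+ 2.17.0 (E-value at most 1e-10). The authors' annotation is of another release: the length of Dynlt1 differs by 3 bases and Dynlt1a has other bounds. The fit was tested on simulated data. Named genes were the 2 members, list genes with a value, linked myosin and dynein genes, and 5 profile neighbours each; Tnnc1, H19, Gm48529, Gm9844, Gm4815 and Gm37401 were named after their values were seen. Python 3.11.15 with Matplotlib 3.10.9, SciPy 1.17.1 and pandas 2.3.3 made tables and figures.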

Additional observations from a re-analysis of the deposited data

How the results depend on the processing

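The settings tried were quantile normalization, median-of-ratios scaling, filters of none and 5 FPKM, pseudocounts of 0.1 and 5, limma with robust=TRUE, with array weights, with trend=FALSE or with the replicate block, limma voom on recovered reads, summed copies and leaving out each library. The sum over 3 Dynlt1 copies was added after seeing the data. Myl6 stayed below 0 in all 18 and Dynlt1 above 0 in all 19. The values that moved by more than the spread between libraries were -0.14 for Myl6 with quantile normalization, and for Dynlt1 0.48 with median-of-ratios scaling, 0.47 with quantile normalization, 0.33 summed with Dynlt1f and 0.49 summed over 3 copies; the cause was not tested. Without 1 library the log2 differences ran from -0.38 to -0.29 for Myl6 and from 0.38 to 0.44 for Dynlt1. Dynlt1 was among the called genes in 7 of 17 alternatives and Myl6 in 2. Both were chosen with this contrast known and the alternatives refit the same libraries, so nothing is read from these counts. The count of all genes called, 48, was 14 with no filter, where 10948 genes were adjusted for, and 15 to 27 without 1 library. With the replicate block it was 17. Same-numbered libraries deviated with correlations of 0.05, 0.14 and -0.08, so the numbers were not taken as pairs; under the block the log2 differences of Myl6 and Dynlt1 stayed at -0.33 and 0.41. The count of cytoskeletal list genes called ran from 1 to 2 without 1 library. Signs turned for Dynlt1f without OI replicate 2 (-0.071, up to 0.38 without OI replicate 3) and for Tubb4b-ps1 without control replicate 2 (-0.0080, up to 0.152 without OI replicate 2); neither passed in any alternative. Among the 20 linked genes the sign turned for 5, Gm12844, Gm3756, Gm48512, Gm6788 and K230015D01Rik, none of which passed in any alternative. The read numbers of Myl6 in the voom fit were not whole, so its weight there is approximate.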
